A study of Mus musculus with 2 samples.

Results

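The Fc receptor genes of the mouse colon were followed in 1 wild-type (WT) and 1 knockout (KO) single-cell library. The group held 6 of the 31053 features: Fcgr1, Fcgr3 and Fcgr4, whose products are the activating receptors for IgG, Fcgr2b, whose product is the inhibitory receptor for IgG, Fcer1g, the signalling chain that the activating receptors share, and Fcgrt, the heavy chain of the neonatal Fc receptor. They were chosen by symbol. In the WT library the kept cells held 807 UMIs (unique molecular identifiers, each standing for 1 captured molecule) of Fcgr1, 1497 of Fcgr3, 846 of Fcgr4, 2374 of Fcgr2b, 9865 of Fcer1g and 865 of Fcgrt. In the KO library they held 449, 1926, 509, 2265, 18222 and 1085.

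Fcγ receptors bind the constant part of IgG and let myeloid cells read antibody-coated particles. The activating receptors pair with the Fcer1g chain, whose immunoreceptor tyrosine-based activation motif (ITAM) recruits Syk, while the product of Fcgr2b carries an inhibitory motif (ITIM) in its own tail that recruits the phosphatase encoded by Inpp5d. A macrophage therefore carries both signs of receptor at once, and B cells are known for carrying Fcgr2b alone. The neonatal Fc receptor works inside the cell, where it returns IgG and albumin from endosomes to the surface, with the product of B2m as its partner.

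Cells came from the colon lamina propria of male mice 8 weeks old and are labelled cd11b+ (the surface protein encoded by Itgam). The WT library came from wild-type mice, and the KO library from mice labelled LncRNA17Rik knockout, a long non-coding RNA that the study calls lncLy6c. According to the methods the knockout mice were made by zygote injection with CRISPR-Cas9, so every cell of these mice, and not the myeloid cells alone, carries the deletion. Each library is a pool of mice, 6 in number, and whether 6 were pooled per genotype is not given in the sources used here. With 1 pooled library per genotype no test between genotypes was possible, so all intervals below are 95% intervals that cover counting error only, not the variation between mice, and "past 2-fold" is a rule of size.

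All 6 genes lie on 3 chromosomes of GRCm38. Fcgr2b (ENSMUSG00000026656, chr1:170958617-170976547, minus strand), Fcgr4 (ENSMUSG00000059089, chr1:171018920-171029761, plus strand), Fcgr3 (ENSMUSG00000059498, chr1:171051174-171064935, minus strand) and Fcer1g (ENSMUSG00000058715, chr1:171229572-171234365, minus strand) form a cluster that spans 276 kb. Fcgr4 lies 42.4 kb from Fcgr2b and 21.4 kb from Fcgr3. Fcgr1 (ENSMUSG00000015947, chr3:96282909-96293969) and Fcgrt (ENSMUSG00000003420, chr7:45092990-45103851) lie apart, both on the minus strand. Fcgr2b and Fcgr3 are close copies in part: 166 stretches of 50 bases are shared between their protein-coding transcripts, 4.48% of those of Fcgr2b and 10.2% of those of Fcgr3. In the last 500 bases, where a 3' library is read, none of the 6 genes shared a stretch of 50 bases with the end of a transcript of any other gene.

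The opposite signs of the receptors are written in short coding stretches, shown here because the balance reported below rests on them. The ITIM letters were also matched in Fcgr1 (3 times) and in Fcgr4, Fcer1g and Fcgrt (1 time each), so the letters alone do not tell the signs apart. The capitals mark the codons of the tyrosines that become phosphorylated. The ITIM of Fcgr2b lies in exon 8 (chr1:170961071-170961088), and the ITAM of Fcer1g is split between exons 4 and 5, within chr1:171229889-171230072, so the printed run joins both exons.
Fcgr2b ITIM: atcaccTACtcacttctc
Fcer1g ITAM: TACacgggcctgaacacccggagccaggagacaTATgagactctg

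The promoters of the 3 activating receptor genes are shown because of their levels in macrophage-like, monocyte-like and intermediate cells together. There Fcgr1 and Fcgr4 were lower in KO (log2 ratios of -1.05 and -1.29) and Fcgr3 differed far less (-0.12). This did not hold in each class, since in neutrophil-like cells Fcgr4 (-0.61) and Fcgr3 (-0.53) were alike. Windows run from 250 bases before to 50 bases after the start (RefSeq, GRCm38.p6) and were searched on both strands for GAGGAA, a core of PU.1 sites. Capitals mark the matches. All 3 windows held GAGGAA once on the opposite strand, where it reads TTCCTC, beginning 55 bases before the start in Fcgr1, 22 in Fcgr4 and 6 in Fcgr3. The Fcgr1 window is chr3:96293920-96294219 (minus strand). The Fcgr4 window is chr1:171018676-171018975 (plus strand) and the Fcgr3 window chr1:171059354-171059653 (minus strand).
Fcgr1 promoter: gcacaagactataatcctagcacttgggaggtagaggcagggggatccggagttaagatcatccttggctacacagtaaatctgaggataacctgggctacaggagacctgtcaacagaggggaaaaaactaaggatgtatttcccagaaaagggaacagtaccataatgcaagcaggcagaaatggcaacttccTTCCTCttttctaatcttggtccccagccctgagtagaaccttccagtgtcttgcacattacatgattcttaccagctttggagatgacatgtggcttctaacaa
Fcgr4 promoter: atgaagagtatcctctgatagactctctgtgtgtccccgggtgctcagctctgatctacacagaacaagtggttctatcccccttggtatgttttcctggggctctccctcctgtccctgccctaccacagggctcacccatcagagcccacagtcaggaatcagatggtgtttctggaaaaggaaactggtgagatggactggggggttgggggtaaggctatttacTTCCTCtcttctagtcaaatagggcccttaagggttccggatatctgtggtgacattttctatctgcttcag
Fcgr3 promoter: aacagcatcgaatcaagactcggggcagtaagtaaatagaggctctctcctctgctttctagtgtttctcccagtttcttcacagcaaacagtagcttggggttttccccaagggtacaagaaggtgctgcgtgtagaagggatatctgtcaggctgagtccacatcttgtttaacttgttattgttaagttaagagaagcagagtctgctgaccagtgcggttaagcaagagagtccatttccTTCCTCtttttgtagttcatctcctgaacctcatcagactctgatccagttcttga
The letters GAGGAA occur in 28.3% of the 32851 promoter windows of this length, and the windows of Fcgr2b, Fcer1g and Fcgrt did not hold them. A match is a run of letters and not a measured binding site.

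After the cell filters 2597 WT and 2514 KO cells remained, with 18994564 and 22331342 UMIs and medians of 5073 and 6564.5 UMIs per cell. No barcode of the kept cells was shared by both libraries. No feature carries either name of the deleted RNA, and the gene matched by the study's primers for it had 0 UMIs in both libraries, so the counts did not check the genotype labels. Cells were grouped into 26 clusters without use of the Fc receptor genes and named from markers that include none of them, and 1 cluster could not be named, which held 7.16% of the WT library and 3.62% of the KO library. An Itgam UMI was seen in 79.8% of monocyte-like, 73.0% of macrophage-like, 55.2% of neutrophil-like and 50.9% of eosinophil-like cells. The shares were 12.04% in T cell-like, 6.88% in B cell-like and 7.32% in epithelial cell-like cells. Depth limits such shares, so they do not decide how far the label cd11b+ held for the surface protein. The eosinophil-like cells, with a median of 723 WT and 970 KO UMIs, rest on Ccr3, Alox15, Siglecf and Cd24a. These are 4 of the 10 eosinophil markers. Over both libraries the granule gene Epx and Ear1 had 0 UMIs, Ear2 3, Ear6 14, Prg2 16 and Il5ra 16. Of the 10 neutrophil markers 4 were raised in them as well. The name went to the list with more markers among the 10 leading genes, a tie rule set after the first clustering was seen. The macrophage and monocyte border followed the library: 597 WT cells but 34 KO cells fell in an intermediate cluster that shares markers of both, so results are also given for macrophage-like, monocyte-like and intermediate cells summed into 1 class (865 WT and 664 KO cells).

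Fcgr1, which encodes the high-affinity receptor FcγRI, was found mainly in monocyte-like and macrophage-like cells. Its level is given as UMIs per 1000000 UMIs of the same cells (CPM). In WT it was 247 CPM (interval 210 to 288) in monocyte-like cells, 138 (125 to 151) in the intermediate cells and 87.8 (72.1 to 106) in macrophage-like cells. The 3 intervals did not overlap, but the monocyte-like level was uneven among clusters: 87 of its 160 WT UMIs lay in 19 cells of 1 cluster, and another, led by Chil3, had 81.0 CPM (51.9 to 121), no more than the macrophage-like cells. Outside them it was 22.1 CPM in cDC2-like cells (cDC, conventional dendritic cells), 21.4 in neutrophil-like cells and 1.54 in T cell-like cells, which should lack it and mark the background of free RNA. Macrophage-like, monocyte-like and intermediate cells together held 88.5% of the WT and 91.3% of the KO UMIs of Fcgr1 but only 27.0% and 27.3% of all UMIs.

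Fcgr3, the low-affinity activating receptor FcγRIII, reached both granulocyte classes as well as monocytes and macrophages. In WT it was 334 CPM (250 to 437) in eosinophil-like, 301 (260 to 346) in monocyte-like and 278 (208 to 365) in neutrophil-like cells, and these did not differ beyond their intervals. Macrophage-like cells followed with 223 CPM (197 to 250), intermediate cells with 216 (200 to 233), cDC2-like cells with 39.7, cDC1-like cells with 19.2 and T cell-like cells with 4.63. In KO the eosinophil-like cells stood above the rest, with 484 CPM (422 to 553) against 225 (208 to 242) in monocyte-like, 199 (183 to 216) in macrophage-like and 193 (163 to 226) in neutrophil-like cells.

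Fcgr4, which encodes FcγRIV, was shared by neutrophil-like, macrophage-like and monocyte-like cells, at 214 CPM (153 to 291), 154 (133 to 177) and 148 (120 to 181) in WT, with overlapping intervals. Intermediate cells had 137 CPM (125 to 151) in WT and held 52.4% of the WT UMIs of Fcgr4. In KO the neutrophil-like cells, at 140 CPM (115 to 169), stood above macrophage-like cells at 60.4 and monocyte-like cells at 58.1. Eosinophil-like cells held 1 Fcgr4 UMI in WT and 0 in KO, where 3 UMIs would be 6.66 CPM, although they had Fcgr3 at 334 and 484 CPM. Fcgr4 and Fcgr3 therefore parted between these classes. Neutrophil-like cells had both, and eosinophil-like cells, which were named by a tie rule over the neutrophil list, had Fcgr3 without a measurable level of Fcgr4.

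Fcgr2b, the inhibitory receptor FcγRIIB, had its highest WT levels in intermediate (382 CPM, 361 to 404), monocyte-like (346, 302 to 394) and macrophage-like cells (314, 284 to 347). B cell-like cells, in which it restrains the antigen receptor, came next with 105 CPM (83.6 to 131), followed by cDC2-like cells with 71.1 (61.9 to 81.2). Neutrophil-like cells had 26.7 CPM, from 5 UMIs. In KO it was 251 CPM (180 to 342, from 34 cells) in intermediate and 236 (219 to 255) in macrophage-like cells, whose intervals overlapped, and 136 (123 to 149) in monocyte-like cells. After these came 95.7 (89.1 to 103) in cDC2-like cells, followed by 60.0 (39.5 to 87.3) in eosinophil-like, 58.4 (51.3 to 66.2) in cDC1-like and 50.8 (31.0 to 78.4) in B cell-like cells, the last 3 with overlapping intervals.

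Fcer1g had the highest level of the 6 genes in each of the myeloid classes with at least 50 cells per library. It ranged in WT from 138 CPM in cDC1-like over 341 in eosinophil-like, where Fcgr3 was as high, 605 in cDC2-like, 993 in macrophage-like and 995 in neutrophil-like to 1465 in monocyte-like cells. In KO it ranged from 279 CPM in cDC1-like to 1935 in monocyte-like and 1954 in neutrophil-like cells. Outside the myeloid classes, natural killer cell-like cells held 895 CPM in WT and 1739.7 in KO, although each library had fewer than 50 of them, and a T cell-like cluster led by Gzma and Gzmb held 626 and 299 CPM. Fcgr3 was 54.1 and 53.0 CPM in natural killer cell-like cells, of which 25.9% in WT and 21.4% in KO held an activating receptor UMI, and 6.41 and 4.83 in that T cell-like cluster. Fcer1g is known to serve other receptors in such lymphocytes.

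Fcgrt followed another pattern. Its highest WT level was in fibroblast-like cells, at 194 CPM (154 to 240), followed by macrophage-like cells at 108 (90.3 to 127) and cDC2-like cells at 75.0 (65.6 to 85.5). Epithelial cell-like cells had 48.6 CPM (40.0 to 58.6), 64.2 in the cluster led by Defa24 and Car1, against 0.876 of Fcgr1. Neutrophil-like cells held 0 WT and 1 KO UMI, and eosinophil-like cells 0 in both libraries, where 3 UMIs would be 18.9 and 6.66 CPM. Over the 20 combinations of class and library with at least 50 cells, the Pearson correlation of log2(CPM + 10) between Fcgrt and the other members ran from -0.07 with Fcgr3 to 0.47 with Fcgr2b, while Fcgr1 and Fcgr4 had 0.83 and Fcgr3 and Fcer1g 0.79. These points share libraries and depth, so the values are descriptions.

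**Figure D1:**
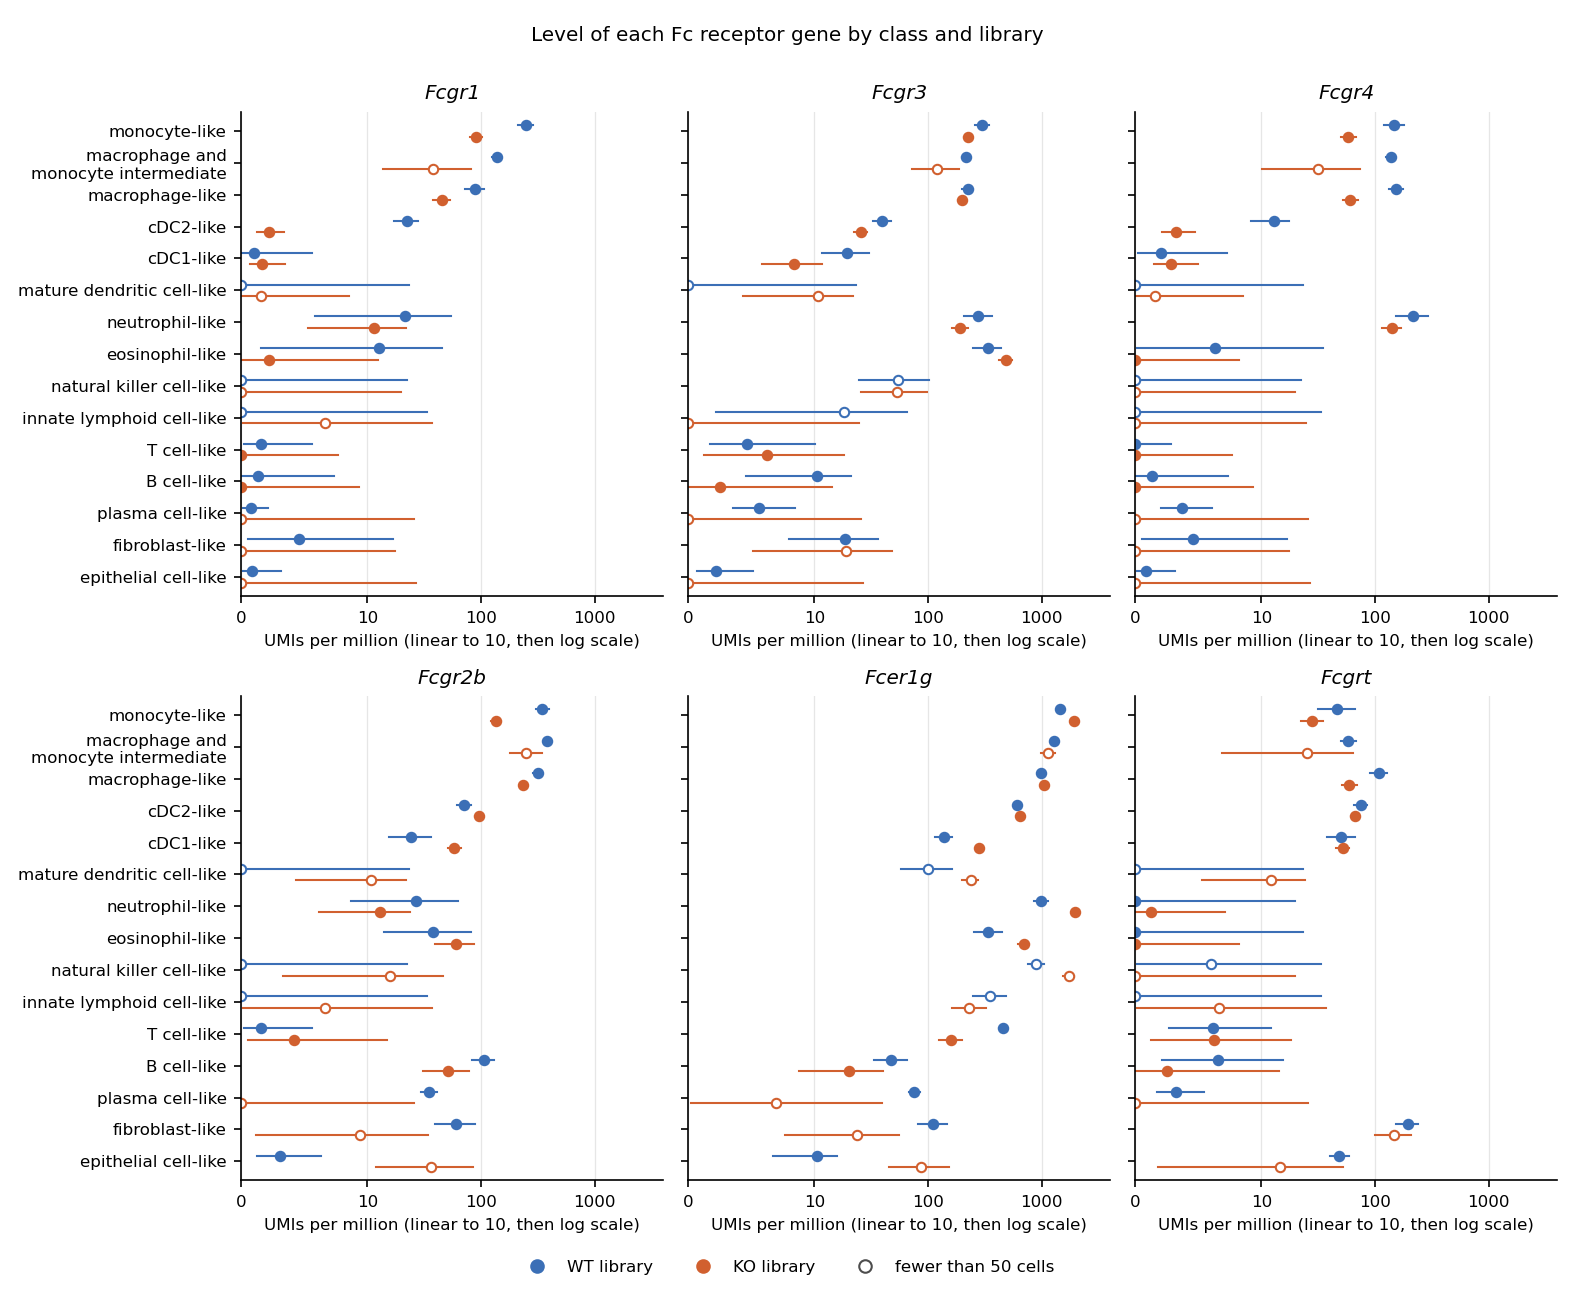
CPM of each Fc receptor gene (x axis, linear to 10 and then a log scale) by class (y axis) in the WT (blue) and KO (orange) library, with 95% Poisson intervals as lines and open points for fewer than 50 cells. Fcgr1 sits in monocyte-like and macrophage-like cells, Fcgr4 also in neutrophil-like cells, Fcgr3 also in eosinophil-like cells, and Fcgrt is highest in fibroblast-like cells (194 WT, 146 KO).

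The activating to inhibitory balance was taken as the UMIs of Fcgr1, Fcgr3 and Fcgr4 per UMI of Fcgr2b in the same cells. A 3' library counts each captured molecule once and needs no scaling by length, but genes can be captured unequally, so the ratio is compared between classes and libraries and is not a ratio of proteins. In WT the balance was 19.2 (7.95 to 60.5) in neutrophil-like and 9.33 (4.03 to 26.5) in eosinophil-like cells, with 5 and 6 UMIs of Fcgr2b. It was 2.01 (1.71 to 2.37) in monocyte-like, 1.48 (1.298 to 1.683) in macrophage-like, 1.29 (1.19 to 1.39) in intermediate, 1.05 (0.868 to 1.27) in cDC2-like, 0.917 (0.490 to 1.71) in cDC1-like, 0.287 (0.197 to 0.408) in plasma cell-like and 0.125 (0.0577 to 0.242) in B cell-like cells. The cDC1-like value came from 22 and 24 UMIs, and the plasma cell-like value from 41 and 143 UMIs in 225 WT cells, beside only 5 KO cells. Neutrophil-like and eosinophil-like cells thus had the highest values in this list and B cell-like and plasma cell-like cells the lowest.

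In KO the balance was 27 in neutrophil-like, 8.11 in eosinophil-like, 2.75 (2.46 to 3.09) in monocyte-like, 1.29 (1.16 to 1.42) in macrophage-like, 0.323 (0.280 to 0.372) in cDC2-like, 0.220 (0.161 to 0.297) in cDC1-like and 0.05 in B cell-like cells, the last from 1 activating UMI. The log2 change from WT to KO was 0.45 (0.17 to 0.73) in monocyte-like cells and 0.35 (0.21 to 0.48) in macrophage-like, monocyte-like and intermediate cells together. That pool changed in make-up, from 111 monocyte-like of 865 cells in WT to 350 of 664 in KO, and within it the balance of the intermediate cells fell from 1.29 to 0.75 (-0.78, -1.47 to -0.09). In macrophage-like cells the log2 change was -0.20 (-0.43 to 0.03), which includes no change. It was -1.70 (-2.04 to -1.36) in cDC2-like cells. In cDC1-like cells it was -2.06 (-2.99 to -1.12), but -0.13 (-1.99 to 1.72) without the 5 WT and 28 KO cells that held a UMI of C1qa, C1qb or C1qc. The intervals of neutrophil-like (0.49, -1.09 to 2.08) and eosinophil-like cells (-0.20, -1.55 to 1.14) were too wide to give a direction.

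**Figure D2:**
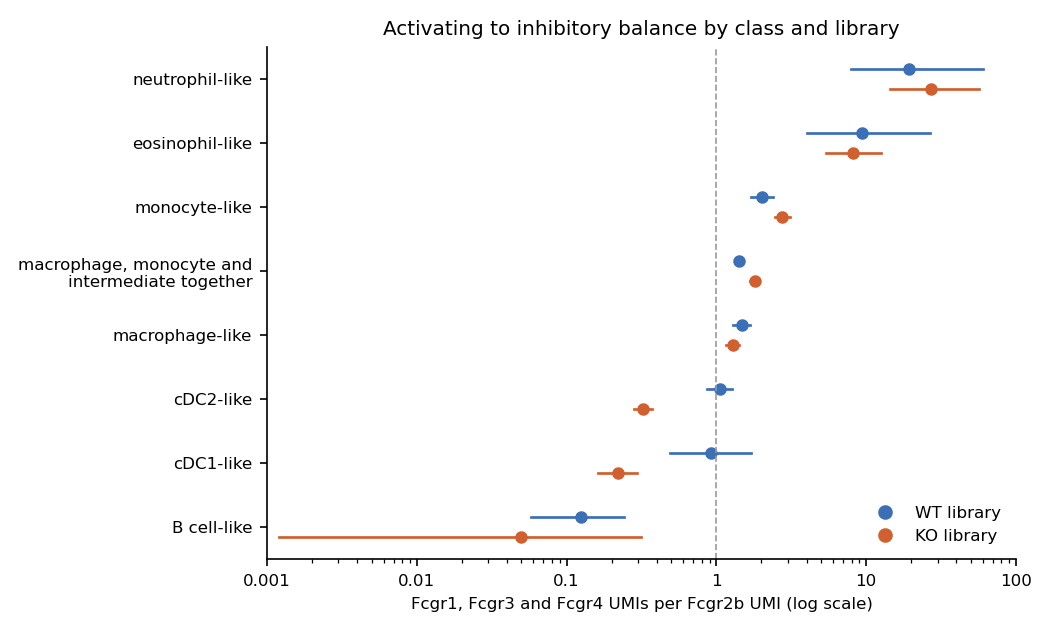
UMIs of Fcgr1, Fcgr3 and Fcgr4 per UMI of Fcgr2b (x axis, log scale) by class in the WT (blue) and KO (orange) library, with 95% intervals and a dashed line at equal counts. Neutrophil-like and eosinophil-like cells lie right of the line and B cell-like cells left of it, and the cDC2-like cells move from 1.05 in WT to 0.323 in KO.

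The change differed with the activating receptor that was counted. With Fcgr3 alone over Fcgr2b the log2 change was 0.93 (0.60 to 1.26) in monocyte-like cells and 0.83 (0.67 to 0.99) in the 3 classes together. With Fcgr1 and Fcgr4 it was -0.07 (-0.39 to 0.26) in monocyte-like cells, which gives no direction, and -0.21 (-0.38 to -0.05) in the 3 classes together. These are sums over classes whose clusters differed.

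In monocyte-like cells, summed over their clusters, the receptors were lower in the KO library and Fcer1g was higher. Fcgr1 went from 247 to 89.9 CPM (-1.46, -1.74 to -1.17), Fcgr2b from 346 to 136 (-1.35, -1.59 to -1.11) and Fcgr4 from 148 to 58.1 (-1.35, -1.72 to -0.98). Fcgr3 moved less, from 301 to 225 CPM (-0.42, -0.65 to -0.18), and Fcgrt went from 46.3 to 27.9 (-0.73, -1.35 to -0.08). Fcer1g was higher, at 1465 and 1935 CPM (0.40, 0.30 to 0.50). The cells behind these sums differed, since the Chil3-led cluster made up 44 of 111 WT and 279 of 350 KO cells. In the cluster with Rsad2 among its leading genes Fcer1g was 2065 and 1702.5 CPM and Fcgr1 622 and 652. Over the class, the UMIs of Fcer1g per UMI of an activating receptor went from 2.11 (1.88 to 2.36) to 5.19 (4.87 to 5.54). Of the 6 members 3 were past 2-fold, where 9.82% of the 5797 genes with at least 50 UMIs were past it in either direction, and the median log2 ratio of those genes was -0.14. Fcgr1 fell under 2-fold at Leiden resolution 2 (-0.77), with each library clustered alone (-0.90), with cells classed by highest marker score (-0.94) and with the intermediate cells added (-0.84). In that order the class then held 406, 403, 293 and 708 WT cells against 111, so each of these settings also moved the class border. The 12 monocyte markers, all seen, summed to 9273 and 7655 CPM in these cells, the 12 macrophage markers, with Cd163 at 0 in KO, to 4325 and 3042, and the 10 neutrophil markers, all seen, to 845 and 2513, and their part in the result was not tested.

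In macrophage-like cells Fcgr4 differed most, from 154 to 60.4 CPM (-1.35, -1.65 to -1.05). Fcgr1 went from 87.8 to 44.9 CPM (-0.97, -1.34 to -0.59), Fcgrt from 108 to 59.4 (-0.86, -1.19 to -0.52) and Fcgr2b from 314 to 236 (-0.41, -0.59 to -0.23). Fcgr3, at 223 and 199 CPM (-0.16, -0.37 to 0.05), and Fcer1g, at 993 and 1058 (0.09, with an interval up to 0.19 that just includes 0), did not differ beyond counting error over the whole class. Within each cluster of the class Fcer1g was slightly higher in KO. The log2 ratio was 0.18 (0.06 to 0.31) in the cluster led by Mmp13 and C1qc and 0.28 (0.07 to 0.48) in the one led by Retnla. Of 6 members 1 was past 2-fold, where 9.58% of 6516 genes were, and the median over those genes was -0.18. The 12 macrophage markers, all seen in both libraries, summed to 21556 and 13177 CPM in these cells and the 12 monocyte markers, 11 seen in WT with Cd177 at 0 and 12 in KO, to 834 and 1145, and their part in the result was not tested. In the 3 classes together 2 of 6 members, Fcgr1 (-1.05) and Fcgr4 (-1.29), were past it, against 6.07% of 8683 genes. Fcgr2b stood just under it at -0.95 (361 to 186 CPM) and Fcgr3 near the median of all genes of -0.17, at -0.12 (228 to 210 CPM).

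**Figure D3:**
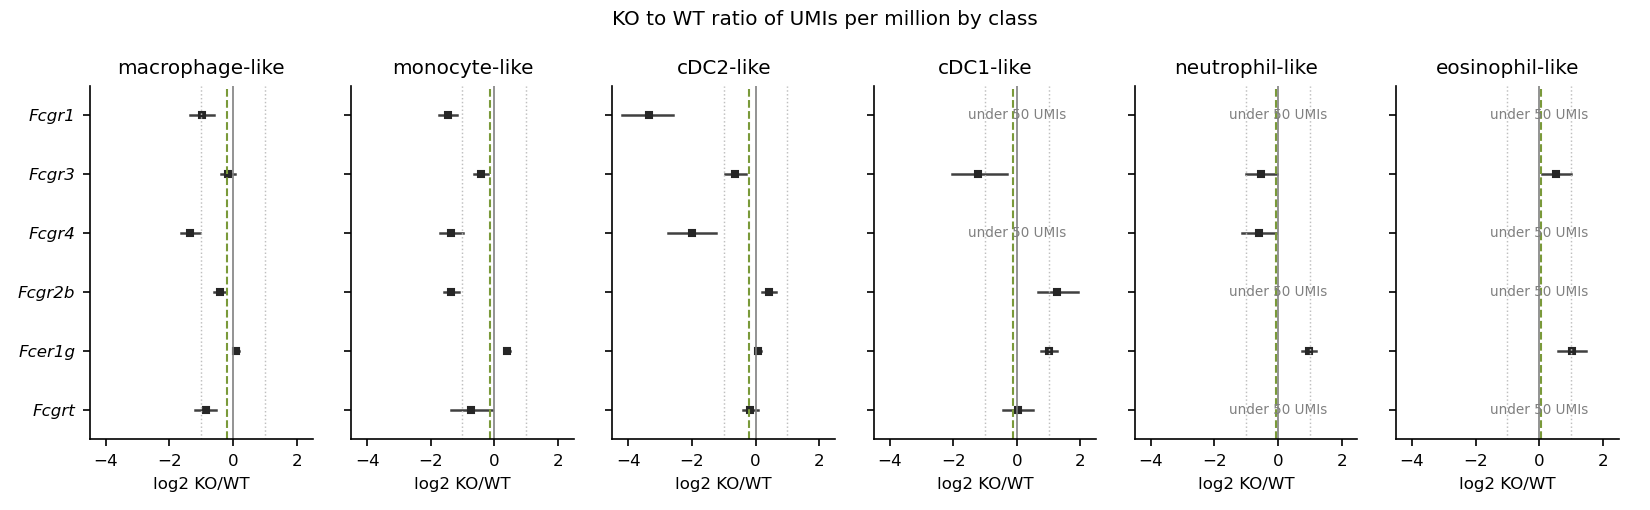
Log2 ratio of KO to WT CPM (x axis) of each gene (y axis) in 6 classes, with 95% intervals as lines, dotted lines at 2-fold and a dashed green line at the median of all genes with at least 50 UMIs. Fcgr1 and Fcgr4 lie left of 0 in macrophage-like, monocyte-like and cDC2-like cells, and Fcgr2b lies left of 0 in the first 2 classes (-0.41 and -1.35) and right of it in cDC2-like cells (0.43).

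The clusters inside these classes did not act alike. The macrophage-like class held a cluster led by Mmp13, C1qc and C1qa, with 125 WT and 107 KO cells, and a cluster led by Retnla and Lpl, with 32 and 173. In the C1q-led cluster, Fcgr2b went from 349 to 212 CPM (log2 -0.72, -0.98 to -0.46) while Fcgr3 stayed at 247 and 245 (-0.01, -0.28 to 0.26) and Fcgr1 at 93.0 and 77.9 (-0.26, -0.72 to 0.21). Fcgr4 went from 172 to 132 CPM there (-0.38, -0.73 to -0.03), under 2-fold, where it was past 2-fold in the whole class (-1.35). Its balance rose from 1.47 to 2.15 (log2 0.55, 0.24 to 0.87). In the Retnla-led cluster the balance fell instead, from 1.55 to 0.953 (log2 -0.70, -1.25 to -0.15). There Fcgr1 went from 68.2 to 30.05 CPM and Fcgr4 from 87.1 to 28.0. Fcgr3, the activating receptor with the most UMIs there, was 133 and 178 CPM (log2 0.42, -0.08 to 0.97) and Fcgr2b 186 and 247 (0.41, -0.01 to 0.87), both with intervals that include 0. The balance of the whole macrophage-like class therefore averaged 2 opposite differences, weighted by unequal shares of cells.

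Among the monocyte-like clusters, one with Rsad2, Ccl2 and the interferon-response genes Ifit1, Ifit2 and Ifit3 among its 10 leading genes (the Rsad2 cluster) stood out for Fcgr1. It held 19 WT and 39 KO cells and had 622 CPM of Fcgr1 in WT and 652 in KO, the highest level of any cluster in both libraries. Fcgr2b in the same cells was 536 and 193 CPM, and the balance 2.27 (1.72 to 3.02) and 5.30 (3.86 to 7.44). The other monocyte-like clusters had lower Fcgr1 levels that differed between libraries, with 81.0 and 42.5 CPM in the Chil3-led cluster (44 and 279 cells) and 231 and 41.0 in the cluster led by Ccnb1ip1 and F13a1 (48 and 32 cells). In the last of these the balance was 1.94 and 1.48, with an interval of its log2 change (-0.39, -1.02 to 0.23) that includes 0, and in the Chil3-led cluster 1.83 and 2.62 (0.51, 0.07 to 0.96). Without the Rsad2 cluster the log2 ratio of Fcgr1 in monocyte-like cells was -1.76. In the intermediate cells all 4 Fcγ receptors were lower in KO, with log2 ratios from -2.13 for Fcgr4 to -0.60 for Fcgr2b, from only 34 KO cells. Fcer1g (-0.18, -0.41 to 0.03) and Fcgrt (-1.21, -3.11 to 0.17) lay below 0 as well, with intervals that include 0. With fewer than 50 KO cells no share or median over all genes was computed there, so a general shift cannot be told apart. Median UMIs per cell were 4807 and 1947.5 there. The 12 macrophage markers, with Cd163 and Pf4 at 0 in KO, summed to 7956.5 and 3287 CPM in these cells and the 12 monocyte markers, all seen, to 4908 and 4349, and their part was not tested.

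**Figure D4:**
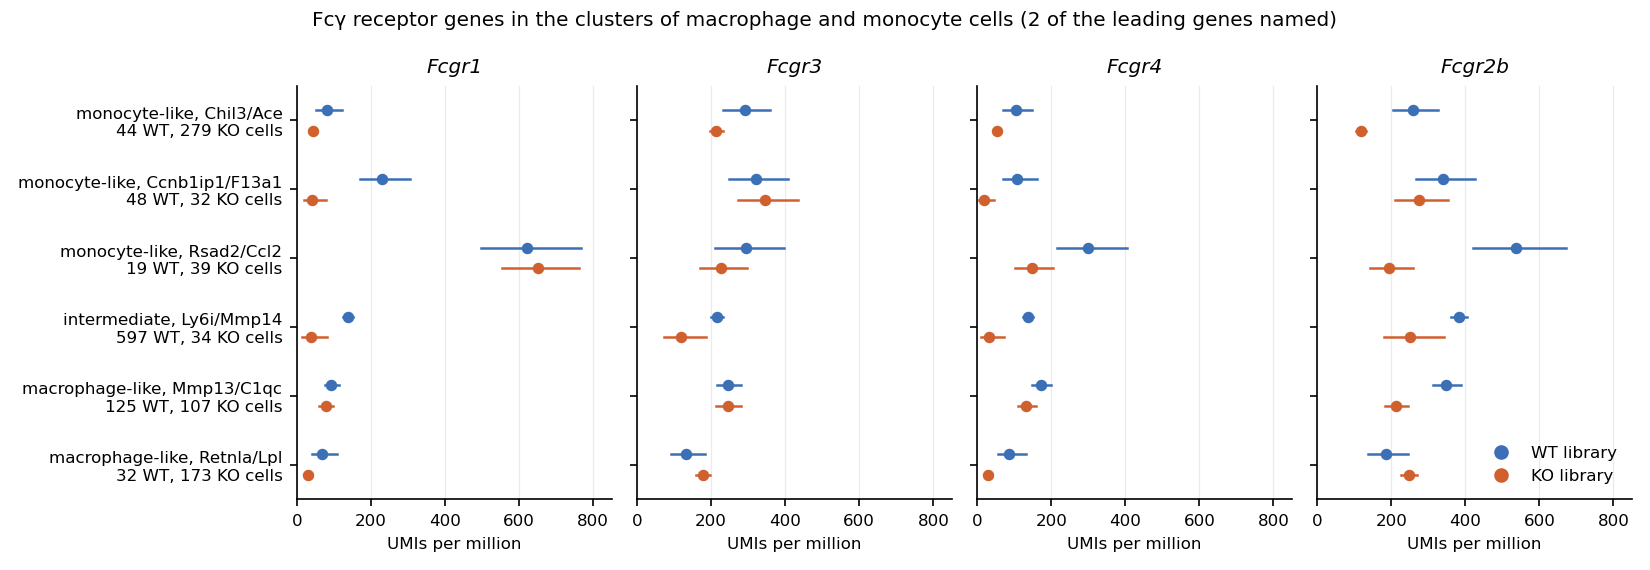
CPM (x axis) of the 4 Fcγ receptor genes in the 6 clusters of monocyte-like, intermediate and macrophage-like cells (y axis, with 2 of the leading genes and cell numbers), WT in blue and KO in orange, with 95% Poisson intervals. Fcgr1 peaks in the Rsad2 cluster in both libraries (622 and 652), and Fcgr2b is lower in KO in 5 of the 6 clusters and higher in the Retnla-led one (186 and 247), with overlapping intervals in 2 of the 6.

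In cDC2-like cells Fcgr2b was higher in KO over the whole class, at 71.1 and 95.7 CPM (log2 0.43, 0.21 to 0.65), while Fcgr1 fell from 22.1 to 2.16 (-3.36, -4.20 to -2.59), Fcgr4 from 12.9 to 3.24 (-1.99, -2.76 to -1.25) and Fcgr3 from 39.7 to 25.5 (-0.64, -0.97 to -0.30), a ratio that turned to 0.07 at Leiden resolution 2. The KO level of Fcgr1 was close to that of T cell-like cells. Fcer1g (605 and 645 CPM, log2 0.09) and Fcgrt (75.0 and 67.0, log2 -0.16) changed little over the whole class. Of 6 members 2 were past 2-fold, against 6.14% of 8421 genes, and the median of those genes was -0.20. The higher Fcgr2b level of the class did not hold in each cluster. In the cluster led by Clec10a and Cd209d (169 and 221 cells) Fcgr2b was 109 and 105 CPM (log2 -0.05, -0.33 to 0.23), and in the one led by Plet1 and Tbc1d4 (114 and 229 cells) 19.8 and 34.2 (0.79, 0.18 to 1.46). A cluster led by Mgl2 and Ccl17, with 5 WT and 131 KO cells, held 402 of the 798 KO UMIs of Fcgr2b, at 196 CPM, so the make-up of the class changed with its level. Both cDC2-like clusters with at least 20 cells per library showed the fall in balance, with -1.64 in the Clec10a-led and -2.24 in the Plet1-led cluster. In the same order Fcgr3 was lower in KO, at log2 -1.06 (-1.57 to -0.56) and -1.34 (-2.07 to -0.60). Fcgrt went opposite ways, at -0.42 (-0.72 to -0.13) and 0.69 (0.18 to 1.23). Fcgr1 was -2.62 (-3.54 to -1.78) in the Clec10a-led cluster, which held 59 of its 67 WT UMIs. The Plet1-led cluster held 3 WT and 0 KO UMIs of Fcgr1.

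Markers of other myeloid cells moved with the cDC2 result. The 12 monocyte markers, all seen in WT and 11 in KO, where Cd177 was at 0, summed to 2209 CPM in WT and 823 in KO, and the 12 macrophage markers, all seen, to 548 and 381. In WT the monocyte list also summed to 2069 CPM in fibroblast-like and 1772 in epithelial cell-like cells, beside 906 in T cell-like and 397 in eosinophil-like cells. Its sum therefore does not single out monocyte RNA. The part of the monocyte markers in the result was not tested. Without the cDC2-like cells that held a UMI of C1qa, C1qb or C1qc (48 WT and 74 KO cells), which are macrophage and not monocyte markers, the log2 change in balance was -1.75 and that of Fcgr1 -3.35, and the ratio of Fcgr4 shrank to -0.84 (-1.86 to 0.23).

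The cDC1-like result rested on very few WT cells. Of the 19 WT Fcgr3 UMIs 94.7% lay in 5 of the 65 cells, and 17 lay in the 5 cells that held a C1q UMI. Without such cells the log2 change in balance was -0.13 (-1.99 to 1.72). The 12 monocyte markers, with Vcan and Cd177 at 0 in WT, summed to 1278 and 672 CPM there and the 12 macrophage markers, with Pf4 at 0 in WT, to 100.1 and 315. The 10 neutrophil markers, with Cxcr2, Mmp9 and G0s2 at 0 in WT, summed to 216 and 608, and the part of these lists was not tested. Fcgr2b, at 24.3 and 58.4 CPM (log2 1.27, 0.66 to 1.94), and Fcer1g, at 138 and 279 (1.01, 0.75 to 1.28), stayed higher in KO without these cells (1.73 and 1.16). The make-up of the class changed as well, since a cluster led by Hist1h2ae and with Top2a among its leading genes made up 18 of 65 WT but 93 of 198 KO cells. In that cluster Fcgr2b was 43.2 and 66.6 CPM, with overlapping intervals, and Fcer1g 244 and 357, both under 2-fold. In the Xcr1-led cluster (47 and 105 cells) Fcgr2b was 11.8 and 48.5 CPM, from 7 and 92 UMIs, and Fcer1g 68.8 and 184. With all cells, 3 of the 4 members with at least 50 UMIs were past 2-fold, against 5.44% of 7019 genes. Fcgr2b and Fcer1g were higher in KO and Fcgr3 lower, at 19.2 and 8.34 CPM (log2 -1.20, -2.05 to -0.32). The Fcgr3 ratio changed sign with each library clustered alone and without the cells that held a C1q UMI.

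In neutrophil-like cells (78 WT, 259 KO) Fcer1g was 995 and 1954 CPM, a log2 ratio of 0.97 (0.753 to 1.201). Fcgr3 went the other way, from 278 to 193 CPM (-0.53, -0.99 to -0.04), as did Fcgr4, from 214 to 140 (-0.61, -1.14 to -0.05). The UMIs of Fcer1g per activating UMI went from 1.94 (1.51 to 2.51) to 5.67 (4.98 to 6.47). None of the 3 members with at least 50 UMIs was past 2-fold, where 12.2% of 2121 genes were. The macrophage markers, 10 of 12 seen in WT with Cd163 and Mrc1 at 0 and 12 of 12 in KO, summed to 1091 and 455 CPM there, and the 10 neutrophil markers, all seen, to 56266 and 93390, and their part in the result was not tested. In eosinophil-like cells (189 WT, 406 KO) both Fcgr3, 334 and 484 CPM (0.53, 0.10 to 1.00), and Fcer1g, 341 and 693 CPM (1.02, 0.60 to 1.47), were higher in KO, and 1 of these 2 members was past 2-fold, against 8.39% of 1955 genes. The macrophage markers summed to 927 and 811 CPM there, with 10 and 11 of 12 seen and Cd163 at 0 in both. The 12 monocyte markers moved with Fcgr3 and Fcer1g, at 397 CPM in WT (8 seen) and 809 in KO (9 seen). The 10 neutrophil markers, with S100a8 and Csf3r at 0 in WT, summed to 10919 and 8441. The 10 epithelial cell markers, with Krt8, Krt19 and Fabp2 at 0 in KO, summed to 555 and 40.0. That list also summed to 321 and 62.6 CPM in neutrophil-like and to 153 and 26.6 in monocyte-like cells. The part of these lists was not tested. Fcer1g was thus higher in KO in monocyte-like, neutrophil-like, eosinophil-like and cDC1-like cells by intervals that leave out 0, and by a small margin in cDC2-like cells (0.02 to 0.17). Over the macrophage-like class the interval of Fcer1g included 0, although its level was higher in KO in both clusters of that class. In cDC1-like cells the ratio was -0.16 when cells were classed by highest marker score, and with each library clustered alone no WT cell was named eosinophil-like.

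In lymphocytes 1 member in each class reached 50 UMIs. In B cell-like cells Fcgr2b was 105 CPM in WT, from 80 UMIs, and 50.8 in KO, from 20 (log2 -1.06, -1.84 to -0.33), past 2-fold where 6.49% of 3295 genes were. Fcgr1, Fcgr3 and Fcgr4 together had 10 and 1 UMIs there. The macrophage markers summed to 918 CPM in WT, with 11 of 12 seen and Cd163 at 0, and to 833 in KO, with 6 of 12 seen and C1qc, Ms4a7, Cd163, Mrc1, Csf1r and Adgre1 at 0. The 10 neutrophil markers summed to 1230.2 CPM in WT, all seen, and to 76.2 in KO, with Cxcr2, Retnlg, Mmp9 and G0s2 at 0, and the 12 monocyte markers to 941 and 721, with 11 and 7 seen. The part of these lists was not tested. In T cell-like cells Fcer1g was 454 CPM in WT and 160 in KO (-1.51, -1.87 to -1.16), past 2-fold where 16% of 4488 genes were. The T cell-like class is mixed, and the cluster led by Gzma and Gzmb made up 140 of 218 WT but 32 of 81 KO cells. Within that cluster the log2 ratio of Fcer1g was -1.07 (-1.47 to -0.69). In the whole class the 12 cDC2 markers, some of which lymphocytes also express, summed to 1712 CPM in WT and 547 in KO (8 and 10 seen), the 12 monocyte markers to 906 and 319 (8 seen in both) and the 10 neutrophil markers to 31.6 and 373 (8 and 10 seen), and their part was not tested.

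Shares of cells with a UMI were compared after each cell was thinned to 1000 UMIs, since KO cells were deeper (medians of 6596 WT and 9412 KO UMIs in macrophage-like and 5574 and 9278.5 in monocyte-like cells). Fcgr1 was then seen in 21.8% (14.5 to 30.7) of the 110 monocyte-like cells in WT and in 6.47% (4.10 to 9.63) of the 340 in KO, and Fcgr2b in 24.5% (16.8 to 33.7) and 12.4% (9.05 to 16.3). Fcer1g was seen in 70.0% (60.5 to 78.4) and 81.8% (77.2 to 85.7). In macrophage-like cells the share with Fcgr2b was 24.2% (17.7 to 31.7) of 157 cells in WT and 13.04% (9.31 to 17.6) of 276 in KO, and that with Fcgr3 22.9% (16.6 to 30.3) and 19.6% (15.1 to 24.7). The thinned shares differed in the direction of the levels. In T cell-like cells, with medians of 4956 and 5754 UMIs, the thinned share with Fcgr1 was 0% of 217 WT and 80 KO cells, which allows shares of up to 1.38% and 3.75% (3 counts) and gives exact upper ends of 1.69% and 4.51%. The last of these lies inside the interval of the KO monocyte-like share of Fcgr1. The T cell-like share with Fcgr3 was 0.461% in WT and 0% in KO, that with Fcgr2b 0% and 1.25% (0.0316 to 6.77), and that with Fcer1g 23.5% and 6.25%. Before thinning, Fcgr1 was seen in 50.5% of WT and 29.7% of KO monocyte-like cells, and Fcgr2b in 64.9% and 48.9%, while in the deeper KO macrophage-like cells the share with Fcgr2b was close to that of WT (69.4% WT, 68.6% KO).

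Both signs of receptor were seen in the same cells. Before thinning, 62.4% of WT and 56.8% of KO macrophage-like cells held a UMI of Fcgr2b and of at least 1 activating receptor, as did 59.5% and 42.6% of monocyte-like cells. In monocyte-like cells those with an activating receptor alone made up 24.3% in WT and 37.7% in KO, but after thinning 31.8% and 22.6%, so the direction turned with depth. Neutrophil-like cells held an activating receptor alone in 50% and 48.3% of cells and both signs in 3.85% and 1.93%. In cDC2-like cells the share with Fcgr2b alone was 14.9% in WT and 32.9% in KO, and 7.29% and 9.84% after thinning. After thinning 15.5% of WT and 3.53% of KO monocyte-like cells held both, as did 10.8% and 5.43% of macrophage-like cells. Neutrophil-like cells with an activating receptor alone then made up 35.1% and 24.8%, and those with both signs 2.70% and 0.4%.

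**Figure D5:**
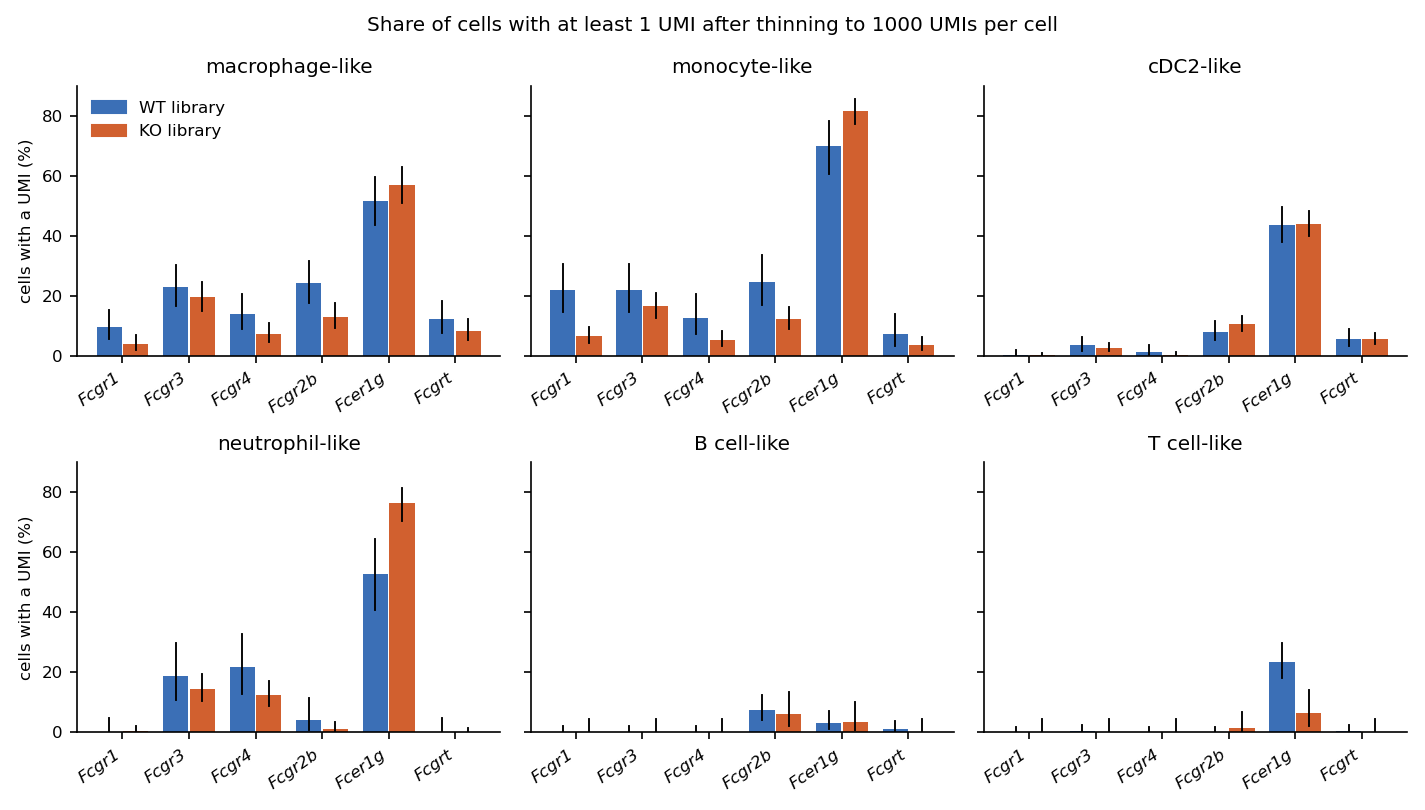
Share of cells with at least 1 UMI of each gene (y axis, percent) after thinning to 1000 UMIs per cell, in 6 classes, WT in blue and KO in orange, with exact 95% binomial intervals. The shares with Fcgr1 and Fcgr2b are lower in KO in monocyte-like and macrophage-like cells, Fcer1g is seen in most monocyte-like cells (70.0% and 81.8%), and T cell-like cells show almost only Fcer1g.

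The other genes of the pathway were counted from 5 lists with 38 genes, with the past 2-fold rule and a minimum of 50 UMIs, by which 9.58% of all genes were called in macrophage-like and 9.82% in monocyte-like cells. Of 12 kinases and adaptors that act after an ITAM, such as Syk and Lyn, 11 were measured in macrophage-like and 11 in monocyte-like cells and none was past 2-fold, with medians of -0.33 and -0.05 against -0.18 and -0.14 for all genes. Of 6 phosphatases and adaptors that act after an ITIM, 1 of 6 in macrophage-like cells was lower (Ptpn6, from 135 to 64.9 CPM, log2 -1.05), and 1 of 5 in monocyte-like cells (Inppl1, from 30.8 to 13.1 CPM, -1.23). The lipid phosphatase Inpp5d stood just under 2-fold in macrophage-like cells, from 186 to 99.8 CPM (-0.90), and was -0.69 in monocyte-like cells. Dok2 (log2 0.52) and Ubash3b (0.75), which encode an adaptor and a phosphatase of this list, lay above 0 in macrophage-like cells. In monocyte-like cells Dok2 was lower in KO (-0.88, -1.65 to -0.06), and Ubash3b was -0.26 with an interval that includes 0 (-0.69 to 0.18). The medians of the list were -0.25 and -0.70, beside -0.18 and -0.14 for all genes.

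In macrophage-like and monocyte-like cells the genes that were past 2-fold upward came from 1 list. Among 5 other receptors that use the Fcer1g chain, 4 were measured, and the C-type lectins Clec4e (176 to 507 CPM, log2 1.52) and Clec4d (79.8 to 314, 1.97), which sense mycobacterial glycolipids and fungi, were higher in KO. In monocyte-like cells Clec4d was higher as well (313 to 713 CPM, 1.19) and Clec4e stayed under 2-fold (706 to 1230.3, 0.80). Their relative Clec4n, also known as dectin-2, was 140 and 118 CPM in macrophage-like and 87.9 and 46.6 in monocyte-like cells. In monocyte-like cells Fcer1g, Clec4d and Clec4e were thus higher in KO, and Clec4n (-0.92, -1.37 to -0.45) was lower. Clec4d is also 1 of the 10 neutrophil markers, which summed to 845 and 2513 CPM in these cells, and their part was not tested. The medians of this list were 0.65 and 0.42. Among 12 other Fc receptors and the FcRn partner, 2 were measured in macrophage-like cells and both were lower: B2m, from 4337 to 1978 CPM (-1.13), and Pigr, the polymeric immunoglobulin receptor of epithelial cells, from 23.1 to 9.33 (-1.31). The 10 epithelial cell markers, with Fabp2 at 0 in KO, summed to 141 and 58.4 CPM in the same cells, and their part in the value of Pigr was not tested. With fewer than 50 UMIs in monocyte-like cells, Pigr had 20 and 12 UMIs and Trim21, a cytosolic antibody receptor, 8 and 7. Among 3 other signalling adaptors, Tyrobp was 1171 and 979 CPM in macrophage-like and 1729 and 2565 in monocyte-like cells, and none was past 2-fold in either class.

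Lastly, the genes whose pattern over the 20 combinations of class and library was most like each member were listed by Pearson correlation of log2(CPM + 10), among 6901 genes. Fcgr1 was nearest to Clec4a3 (0.94), Clec4a1 (0.94) and Fam26f (0.93). Fcgr2b was nearest to Lgmn (0.89), Ly86 (0.87) and Rgl1 (0.86), Fcgr3 to Hacd4 (0.98), Rab20 (0.96) and Lst1 (0.95), and Fcgr4 to Tlr2 (0.94), Clec4n (0.93) and Sirpb1c (0.92). Fcer1g was nearest to Tyrobp (0.95), which encodes another ITAM adaptor, Lcp2 (0.93) and Map7d1 (0.91), and Fcgrt to Vwa5a (0.95), Cdc42bpb (0.93) and Rnf150 (0.92). The lowest of these best matches belonged to Fcgr2b.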

How the data were processed

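The deposited files hold raw UMI counts per gene and barcode, made by the authors from 10x 3' libraries (Cell Ranger 3.0.2 per the file headers, mm10 and Seurat 4 per the submitters' processing notes). As in the study's methods, cells with 200 to 6000 genes and at most 15% mitochondrial UMIs were kept (2597 WT, 2514 KO). Both libraries were clustered together (2000 variable genes without the 6 members and the 38 listed genes, 30 principal components, 15 neighbours, Leiden resolution 1, scikit-learn 1.9.0, leidenalg 0.10.2) in place of the study's method. Clusters were named after the marker list of which the greatest share was raised 2-fold or more, if 3 or more markers were. A tie rule and the intermediate class were set after the first clustering was seen. UMIs were summed per class and library. Levels have exact Poisson, log2 ratios and balances exact conditional binomial, balance changes Woolf and shares Clopper-Pearson 95% intervals. Counts past 2-fold used a prior of 1 CPM. No doublet caller was part of the main result. The functions were checked on simulated counts. Members, lists and markers were chosen with earlier results of these data known. Named list genes were those past 2-fold in macrophage-like or monocyte-like cells with an interval without 0, and Inpp5d, Dok2, Ubash3b, Clec4n and Tyrobp were added after their values were seen. Of 31053 features 30934 matched GENCODE M21. Protein sequences were not used here.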

Additional observations from a re-analysis of the deposited data

Results flagged for a closer look

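Over whole classes, Fcgr2b was lower in KO in macrophage-like and monocyte-like cells and higher in cDC2-like and cDC1-like cells. This did not hold in each cluster: the log2 ratio was -0.05 (-0.33 to 0.23) in the Clec10a-led cDC2-like cluster and 0.41 (-0.01 to 0.87) in the Retnla-led macrophage-like cluster. The cDC2-like class gained a cluster that was almost absent in WT (5 WT and 131 KO cells). The log2 ratio of KO to WT in macrophage-like cells lay -0.84 from that in cDC2-like cells and -1.68 from that in cDC1-like cells, and the ratio in monocyte-like cells lay -1.78 and -2.62 from them. The log2 change of the activating to inhibitory balance in monocyte-like cells exceeded that in cDC2-like cells by 2.15 and that in cDC1-like cells by 2.51. Each of these pairs stood out because the interval of one class lay below 0 and that of the other above it. With 1 library per genotype the differences were not tested. The cDC1-like values rest on the few WT cells described above (a balance change of -0.13 without those that held a C1q UMI), and the cDC2-like balance change kept its direction without the cells that held a C1q UMI (-1.75).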

How the results depend on the processing

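No paired analysis was possible because each genotype has 1 library. Of 57 recomputed balance changes 39 moved by less than the counting interval, 16 by more and 2 reversed, and of 386 log2 ratios these were 322, 59 and 5. A change of sign counts as reversed only where the reported interval leaves out 0, so those of the macrophage-like balance are not among the 2. The log2 ratio of Fcgr2b in macrophage-like cells (-0.41) was -0.60 with every deposited barcode, -0.61 at Leiden resolution 0.5, -0.62 with the intermediate cluster counted as macrophage-like and -0.72 in the C1q-led cluster alone. With every barcode, resolution 0.5 and the intermediate cluster the class held 841, 763 and 754 WT cells against 157. These settings thus widened the class in a like way and are not separate checks. The macrophage-like balance change (-0.20) was 0.17 with 4000 variable genes, 0.55 in the C1q-led cluster alone, 0.25 with Fcgr3 alone and -0.79 with Fcgr1 and Fcgr4, so its direction was not settled. Fcgr1 in monocyte-like cells (-1.46) was -1.09 with a stricter filter, -0.77 at resolution 2, -0.90 with each library clustered alone, -0.94 by highest marker score, -1.11 as a mean over cells, -1.76 without the Rsad2 cluster and -0.84 when the intermediate cells were added to the class. With the stricter filter, resolution 2 and each library alone the class held 448, 406 and 403 WT cells against 111. Those settings moved the class border as well and are not separate checks. The monocyte-like balance change (0.45) was 0.84 with the stricter filter, 0.87 at resolution 2 and with each library alone, 0.88 with the intermediate cluster, 0.93 with Fcgr3 alone and -0.066 with Fcgr1 and Fcgr4 (interval -0.39 to 0.26). That of the 3 classes together (0.35) was 0.83 with Fcgr3 alone and -0.21 with Fcgr1 and Fcgr4. The cDC2-like change (-1.70) stayed negative, at -1.30 at resolution 2, -1.35 by highest marker score, -1.06 with Fcgr3 alone and -3.13 with Fcgr1 and Fcgr4. Ratios that reversed were Fcgr3 in the 3 classes together (-0.12, then 0.029 as a mean over cells), Fcgr3 in cDC2-like cells (-0.64, then 0.069 at resolution 2), Fcgr3 in cDC1-like cells (-1.20, then 0.93 with each library alone, 1.74 without cells with a C1q UMI) and Fcer1g in cDC1-like cells (1.01, then -0.16 by highest marker score), the last 2 past 2-fold as reported. The value of 1.74 rests on very few WT UMIs, since 17 of the 19 lay in the cells left out. With at least 200 UMIs the share of genes past 2-fold was 7.37% in macrophage-like and 6.66% in monocyte-like cells. The settings with a changed class border, the C1q-led cluster, the Rsad2 cluster and the cells with a C1q UMI were added after seeing the data. Where no value shows it, the cause was not tested. No setting replaces a second library per genotype, and classes with few UMIs, such as B cell-like cells in KO, limit what depth can show.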
